A study of Rattus norvegicus with 11 samples.

Results

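The cell cycle and mitosis genes are 49 genes chosen by symbol from the 18507 genes of one table of bladder expression, and all 49 were found in it. They were sorted by role into 5 G1 cyclins and kinases, 7 genes of the entry into S phase (G1/S), 11 S phase genes, 22 mitosis genes and 4 cyclin-dependent kinase inhibitors. The samples were bladder tissues of adult female Sprague-Dawley rats. In the partial bladder outlet obstruction (PBOO) group a suture was tied around the bladder neck and urethra, and the rats of the normal group, called sham in the study's methods, had an abdominal incision alone. RNA was sequenced at week 4 (3 PBOO and 3 normal samples) and at week 5 (2 PBOO and 3 normal samples). The week 5 normal samples carry column names with the word adult, and their records place them at week 5. The week 4 samples carry column names with the word Input, whose meaning is not given in the sources used here, so that week and any difference in preparation cannot be told apart. No transgene, drug or pooling was stated. The study describes its replicates as biological and one sample as excluded at quality control, and no label ties a replicate to an animal.

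A dividing cell passes from G1 through S phase, in which DNA is copied, to G2 and mitosis, in which the copies are parted. D-type cyclins with Cdk4 and Cdk6, and then cyclin E with Cdk2, release the E2F factors that switch on S phase genes such as the Mcm helicase subunits. The mitosis genes come on later, through the B-Myb (Mybl2) and Foxm1 factors, and are taken as markers of dividing cells. The inhibitors p21 (Cdkn1a), p27 (Cdkn1b), p16 (Cdkn2a, which also encodes Arf) and p18 (Cdkn2c) hold the kinases back. The urothelium and the smooth muscle of an adult bladder divide slowly at rest, and both tissues are known to grow when the outlet is obstructed.

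The promoters of 8 genes are shown because the expression results below are given by the same roles. RefSeq (GRCr8) gave a promoter, from 250 bases before to 50 bases after the gene start, for 36 of the 49 genes. They were searched on both strands for the CCAAT box and for TTTGAA, the CHR element known from mitosis promoters. An E2F word was counted where the window held TTCCCGC or the variant spelled with TTGGCGC instead, and likewise where it held the further variant TTCGCGC or the last of the variants searched, TTGCCGC. These words can overlap one another on opposite strands. Each sequence below is the stretch of 120 bases that ends at the gene start, read 5′ to 3′ on the gene's strand, with the matches in capitals. The first 5 are mitosis genes, from chr20:19265173-19265292 (plus strand), chr2:33655226-33655345 (minus strand), chr8:79981659-79981778 (minus strand), chr10:84473094-84473213 (minus strand) and chr8:71320585-71320704 (minus strand). Mcm6, from chr13:42404353-42404472 (minus strand), and Mcm3, from chr9:30733747-30733866 (minus strand), are S phase genes. Cdkn1a, from chr20:7150812-7150931 (plus strand), is the inhibitor p21.
Cdk1: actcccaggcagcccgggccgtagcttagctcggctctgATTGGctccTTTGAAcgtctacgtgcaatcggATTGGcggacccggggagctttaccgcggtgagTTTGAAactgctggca
Ccnb1: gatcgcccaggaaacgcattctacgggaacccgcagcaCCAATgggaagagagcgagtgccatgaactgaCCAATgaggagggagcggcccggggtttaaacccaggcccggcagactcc
Ccnb2: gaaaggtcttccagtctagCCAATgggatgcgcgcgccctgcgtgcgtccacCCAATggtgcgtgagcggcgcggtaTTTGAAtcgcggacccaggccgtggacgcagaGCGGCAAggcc
Top2a: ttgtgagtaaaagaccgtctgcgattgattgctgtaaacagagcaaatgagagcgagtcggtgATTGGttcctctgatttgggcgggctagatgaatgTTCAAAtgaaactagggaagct
Kif23: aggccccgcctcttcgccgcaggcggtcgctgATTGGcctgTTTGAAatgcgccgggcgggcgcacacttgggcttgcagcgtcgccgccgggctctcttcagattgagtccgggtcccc
Mcm6: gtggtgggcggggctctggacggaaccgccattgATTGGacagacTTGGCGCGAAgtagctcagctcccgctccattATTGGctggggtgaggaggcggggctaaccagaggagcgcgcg
Mcm3: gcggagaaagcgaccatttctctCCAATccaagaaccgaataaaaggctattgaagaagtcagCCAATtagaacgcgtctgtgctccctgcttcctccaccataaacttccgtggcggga
Cdkn1a: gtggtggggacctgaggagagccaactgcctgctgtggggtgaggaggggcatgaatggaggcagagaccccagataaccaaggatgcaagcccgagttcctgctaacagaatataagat

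Among the 19 mitosis promoters, 16 held CCAAT (84.2%), 12 held TTTGAA (63.2%) and 11 held both (57.9%). Of all 19005 protein-coding promoters of this length, 38.4% held CCAAT, 17.0% held TTTGAA and 7.04% held both. An E2F word was in 7 of the 8 S phase promoters (87.5%), in 5 of the 19 mitosis promoters (26.3%) and in 12.2% of all promoters. The S phase promoters held CCAAT in 6 of 8 cases (75.0%), close to the share of the mitosis promoters, TTTGAA in 1 of 8 and the pair of CCAAT and TTTGAA in 0 of 8. In Cdk1, CCAAT and TTTGAA each occur at 2 places in the stretch shown, whereas Cdkn1a has none of the searched words there. Of the 4 inhibitor promoters, 2 held an E2F word (50.0%). These matches are a description of the letters in the window and no measure of binding.

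The deposited values are FPKM, that is, fragments scaled to gene length and to all mapped fragments, so levels can be compared between genes. The FPKM sums lay between 424961 and 564343 per sample, the read depth is unknown, and no counting error can be given. The uroplakins and keratins of urothelium and the contractile genes of smooth muscle were detected in every group, apart from Krt7, which was listed at 0 in all week 4 samples. The PBOO samples of week 5 stood apart in their markers: 9 smooth muscle markers summed to 1866 and 997 FPKM in replicates 1 and 2, against 25005 to 29409 in the normal samples. At week 4 the same sum was 51355, 62430 and 82641 FPKM in PBOO replicates 1, 2 and 3, against 25706 to 27865. The 8 fibroblast markers summed to 114 and 172 FPKM in the week 5 PBOO samples against 1350 to 1759 in the normal samples. The 9 urothelium markers summed to 7963 and 8071 FPKM against 7521 to 9295, with 1 of them called higher and 4 lower. Among them Krt5, a basal keratin, read 779.7 and 2859 FPKM in replicates 1 and 2 against 97.4 to 182 FPKM, and the luminal keratin Krt20 read 0.940 and 0.383 FPKM against 37.5 to 90.6 FPKM. Upk2, a uroplakin, read 320.9 and 328 FPKM against 1557 to 1834 FPKM. In bulk tissue, fewer cells of a type and less RNA per cell cannot be told apart.

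PBOO and normal samples were compared within each week with limma on log2(FPKM + 0.1), a scale that understates the change of low genes. A gene was tested when its mean was at least 0.5 FPKM and was called when its unadjusted p was under 0.05 with at least a 2-fold change. Of the 49 genes, 46 were tested at week 4 (not Mybl2, Cenpe or Cdkn2a) and 47 at week 5 (not Mybl1 or Cdkn2a). Of the tested genes, 6 at week 4 (Ccnb2, Aurkb, Bub1b, Kif11, Cenpf and Ect2) and 7 at week 5 (Ccne2, Mybl2, Bub1b, Kif11, Cenpe, Cenpf and Ect2) had a normal mean under 0.5 FPKM and passed through their PBOO samples.

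At week 4, mitosis genes were higher in the PBOO bladders while most S phase genes, the D-type cyclins and the inhibitors stayed within 2-fold of normal. Of the 46 tested genes, 14 were upregulated and 0 were downregulated, against 2.46% upregulated and 2.45% downregulated of all 11320 genes tested. The 14 were 11 of 21 mitosis genes, 2 of 6 G1/S genes and 1 of 11 S phase genes, with 0 of 5 G1 genes and 0 of 3 inhibitors. Without the 6 genes that passed the filter through their PBOO samples, 11 of 40 were called. None of the 14 passed after Benjamini-Hochberg adjustment in limma, where 0.371% of all genes did so with a 2-fold change and the lowest adjusted p among the 49 was 0.0733, for Rrm2. At an unadjusted p under 0.05 and any fold, 14 genes were higher (5.76% of all genes) and 3 were lower, Cdk4, Mcm7 and Cdkn1b (26.2% of all genes). By role, the median log2 fold change was 1.51 for the mitosis genes, 0.70 for G1/S, 0.09 for S phase, 0.01 for G1, -0.07 for the inhibitors and -0.25 for all genes tested.

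**Figure D1:**
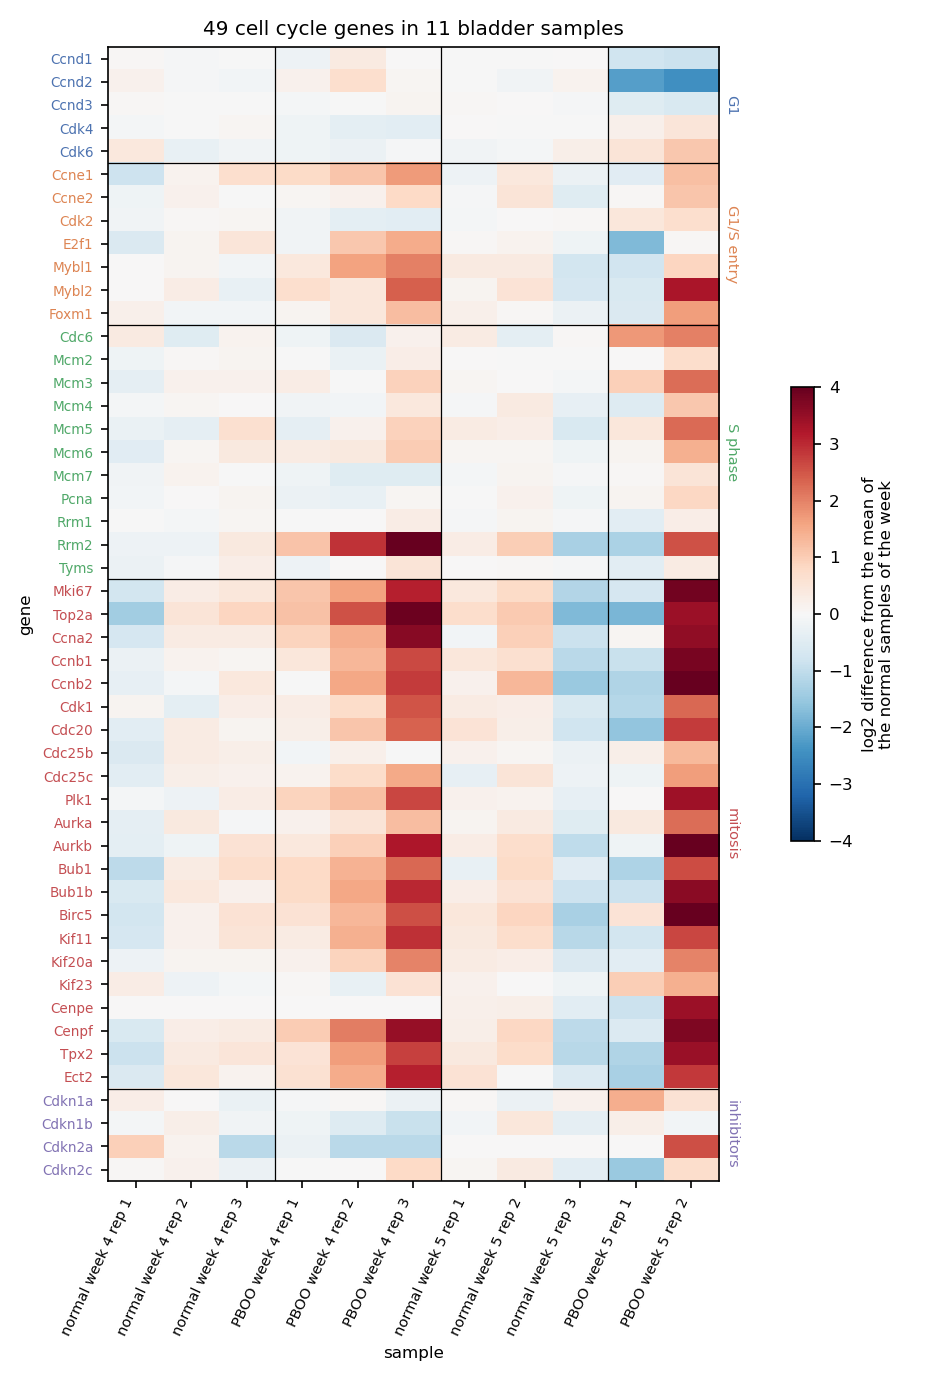
Each row is one of the 49 genes, ordered by role, and each column is a sample. The colour is the log2 difference of FPKM + 0.1 from the mean of the normal samples of the same week, drawn from -4 to 4. The mitosis block is red in PBOO week 4 replicate 3 and in PBOO week 5 replicate 2, paler in the other 2 week 4 PBOO samples, and largely blue or white in PBOO week 5 replicate 1.

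Mki67, which encodes the Ki-67 protein of dividing cells, stood at 0.267, 0.653 and 0.738 FPKM in normal replicates 1, 2 and 3 of week 4 and at 1.23, 1.77 and 5.21 FPKM in the PBOO replicates. The groups did not overlap, and replicate 3 stood far above the other 2 PBOO samples. The log2 fold change was 1.95 ± 0.59 (SE, limma adjusted p = 0.0925). Top2a, the topoisomerase that untangles copied chromosomes, read 0.110, 0.676 and 0.896 FPKM in the normal samples and 1.13, 3.05 and 8.13 FPKM in the PBOO samples. Its log2 fold change of 2.54 ± 0.83 (SE, limma adjusted p = 0.104) was the largest among the mitosis genes. Ccnb1, the cyclin B1 that activates Cdk1 at the start of mitosis, read 0.498, 0.679 and 0.639 FPKM in the normal samples and 0.856, 1.65 and 4.28 FPKM in the PBOO samples. Its log2 fold change was 1.47 ± 0.55 (SE, limma adjusted p = 0.127). In all 3 genes the order of the PBOO samples was the same, with replicate 1 lowest and replicate 3 highest.

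Cdk1, the kinase that drives mitosis, read 3.61, 2.53 and 4.08 FPKM in the normal samples and 4.11, 5.59 and 19.6 FPKM in the PBOO samples. Replicate 1 lay just above the highest normal sample, and with a log2 difference of 1.18 ± 0.55 (SE, limma adjusted p = 0.188) the gene was not called. Aurkb, the chromosomal passenger kinase, read 0.303, 0.376 and 0.688 FPKM in the normal samples and 0.614, 0.925 and 4.93 FPKM in the PBOO samples. The groups overlapped, and its log2 difference of 1.54 ± 0.75 (SE, limma adjusted p = 0.197) was not called either. The other called mitosis genes with the largest changes were Cenpf, a kinetochore protein, at 2.19 ± 0.70, and Ccna2, the cyclin A2 of S phase and G2, at 2.00 ± 0.71 (log2 fold change ± SE). The further called genes were Bub1b and Bub1 of the spindle checkpoint, Ect2 of cytokinesis, Tpx2 of the spindle, Plk1 and Birc5. The log2 difference was positive for all 21 tested mitosis genes, from 0.02 for Cdc25b to 2.54 for Top2a. Of the 21, 6 (Ccnb2, Aurkb, Bub1b, Kif11, Cenpf and Ect2) passed the filter through their PBOO samples, which favours a positive difference. Among all 11320 genes tested, 2735 were positive.

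Among the S phase genes of week 4, Rrm2 was the one call. It encodes the small subunit of ribonucleotide reductase, which makes the building blocks of DNA. Rrm2 read 0.733, 0.738 and 1.16 FPKM in the normal samples and 2.01, 6.94 and 14.9 FPKM in the PBOO samples. The groups were apart, the order of the PBOO samples was that of the mitosis genes, and the log2 fold change was 2.66 ± 0.67 (SE, limma adjusted p = 0.0733). Pcna, the sliding clamp of DNA polymerase, read 55.0, 59.6 and 63.9 FPKM in the normal samples and 50.6, 48.0 and 63.0 FPKM in the PBOO samples. Mcm2, a helicase subunit, read 9.08, 10.6 and 10.9 FPKM against 10.1, 8.48 and 12.2 FPKM. Mcm5, another, read 2.31, 2.14 and 4.42 FPKM against 2.17, 3.16 and 5.46 FPKM. In all 3 the groups overlapped, with log2 differences of -0.15 ± 0.13, -0.00 ± 0.17 and 0.25 ± 0.41 (SE). Mcm7 stood apart from the other helicase subunits, at 24.5, 30.2 and 26.9 FPKM in the normal samples and 24.3, 19.2 and 19.2 FPKM in the PBOO samples. Its log2 difference of -0.38 ± 0.14 (SE) was close to the median of all genes and was within 2-fold.

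**Figure D2:**
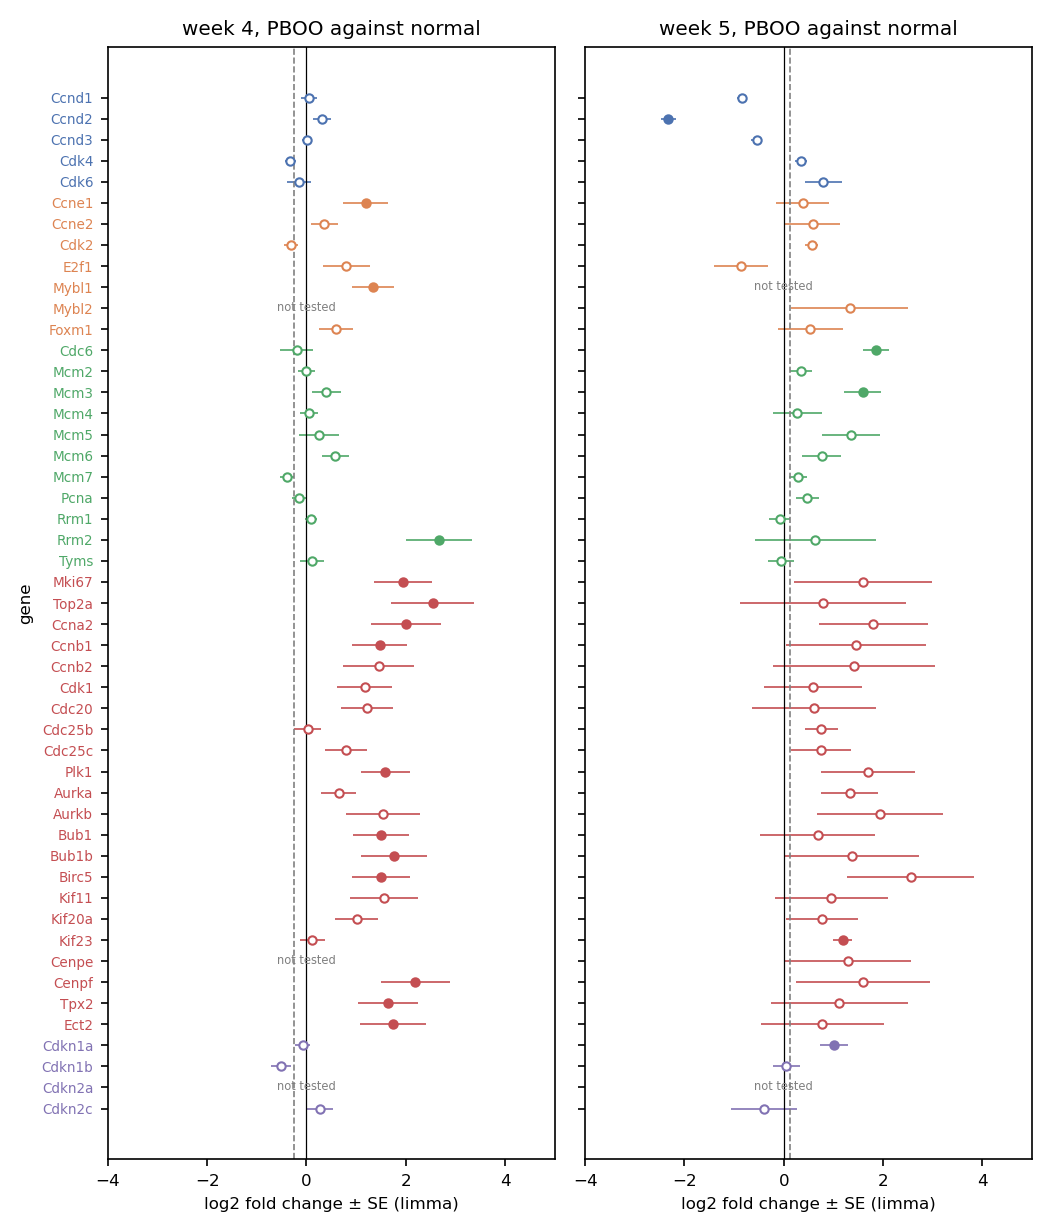
Log2 fold change of PBOO against normal with its standard error from limma, for each gene in rows, coloured by role, at week 4 (left) and week 5 (right). Filled points were called, and the dashed line is the median of all genes tested. At week 4 the called mitosis genes lie from 1.47 to 2.54, and at week 5 the error bars of most mitosis genes are longer than 1 log2 unit and the only filled mitosis point is Kif23.

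Of the G1/S genes, Ccne1 and Mybl1 were upregulated at week 4. Ccne1, the cyclin E1 that opens S phase, read 0.422, 0.920 and 1.35 FPKM in the normal samples and 1.45, 1.89 and 2.90 FPKM in the PBOO samples. Mybl1, a relative of B-Myb, read 0.857, 0.922 and 0.788 FPKM against 1.17, 2.80 and 3.73 FPKM. Neither gene overlapped between groups, and their log2 fold changes were 1.19 ± 0.45 and 1.34 ± 0.43 (SE, limma adjusted p = 0.131 and 0.101). E2f1, the E2F factor of S phase entry, read 1.01, 1.70 and 2.23 FPKM against 1.42, 3.44 and 4.54 FPKM. Foxm1, the forkhead factor of mitosis genes, read 1.61, 1.28 and 1.27 FPKM against 1.48, 1.90 and 3.40 FPKM. Both overlapped between groups, with log2 differences of 0.81 ± 0.48 and 0.59 ± 0.34 (SE), and neither was called. Mybl2 was under the filter, at 0.0867 to 0.185 FPKM in the normal samples and 0.266, 0.216 and 1.12 FPKM in the PBOO samples, where replicate 3 was again the highest.

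The D-type cyclins and their kinases stayed close to normal at week 4. Ccnd1 read 43.0, 40.6 and 41.2 FPKM in the normal samples and 35.8, 53.5 and 41.8 FPKM in the PBOO samples. Ccnd2 read 60.0, 52.2 and 49.2 FPKM against 60.7, 86.4 and 56.6 FPKM. In both the groups overlapped, and the highest sample was PBOO replicate 2, not replicate 3. Cdk4, the partner kinase, read 74.3, 78.9 and 84.4 FPKM against 70.6, 60.1 and 58.7 FPKM, so that the groups did not overlap, with a log2 difference of -0.33 ± 0.11 (SE, limma adjusted p = 0.109) that was within 2-fold. Of all genes, 34.9% likewise had every PBOO sample below every normal sample, and the median log2 difference was -0.25. Cdk6 read 4.18, 2.54 and 2.83 FPKM against 2.75, 2.62 and 2.98 FPKM and overlapped.

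No inhibitor was called at week 4. Cdkn1a read 61.0, 51.6 and 42.8 FPKM in the normal samples and 50.0, 52.8 and 43.8 FPKM in the PBOO samples, so that its PBOO samples lay inside the normal range. Cdkn1b read 38.6, 48.7 and 37.2 FPKM against 36.4, 29.1 and 22.2 FPKM. The p27 groups did not overlap, and replicate 3 was the lowest, with a log2 difference of -0.52 ± 0.20 (SE, limma adjusted p = 0.132). Every PBOO sample was below every normal sample in 34.9% of all genes, and the median log2 difference of all genes was -0.25. Replicate 3 was the lowest PBOO sample in 7093 of all 11320 genes. Cdkn2c read 4.59, 5.11 and 3.83 FPKM against 4.43, 4.54 and 7.93 FPKM and overlapped. Cdkn2a read 0.307 and 0.132 FPKM in normal replicates 1 and 2 and 0.0783 FPKM in PBOO replicate 1, and was listed at 0 in the other 3 samples.

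The spread between the PBOO replicates of week 4 was itself ordered. PBOO replicate 3 was the highest of the 6 samples for 35 of the 46 tested genes (76.1%) and for 20 of the 21 mitosis genes, against 11.2% of all genes tested. Of the 21, 6 had passed the filter through their PBOO samples (Ccnb2, Aurkb, Bub1b, Kif11, Cenpf and Ect2), and all 6 are among the 20. Averaged over the 21 mitosis genes, the log2 difference from the normal mean was 0.50, 1.21 and 2.49 in PBOO replicates 1, 2 and 3, and -0.50, 0.18 and 0.32 in the normal samples. Over the 11 S phase genes the same averages were 0.04, 0.15 and 0.74 in the PBOO samples and -0.15, -0.06 and 0.21 in the normal samples. The median log2 SD of the mitosis genes was 1.09 among PBOO samples and 0.504 among normal samples, compared with 0.244 and 0.157 over all genes. The smooth muscle marker sum given above had the same order across the 3 PBOO replicates, but its members did not all share it. Actg2, Cnn1, Tagln and Des rose from replicate 1 to replicate 3. Myh11 (3203, 3380 and 2754 FPKM in PBOO replicates 1, 2 and 3), Smtn and Lmod1 were lowest in replicate 3. Acta2 and Synpo2 followed neither pattern. The part of this sum in the result was not tested. The 11 leukocyte markers summed to 93.7, 102 and 156 FPKM in PBOO replicates 1, 2 and 3, and to 16.1, 176 and 189 FPKM in the normal samples, which was likewise not tested. The urothelium marker sum ran the other way, at 4396, 4161 and 3751 FPKM in PBOO replicates 1, 2 and 3 and at 5822 to 7260 FPKM in the normal samples. Normal replicate 1, the lowest sample in the mitosis average, had a fibroblast marker sum of 1053 FPKM, where the other normal samples had 3936 and 3983 FPKM, and the part of these sums was not tested either. PBOO was above every normal sample in 16 of the 46 tested genes (6.63% of all genes), 13 of them mitosis genes, and below in 4 (34.9% of all genes). Bub1b, Cenpf and Ect2, which passed the filter through their PBOO samples, are among the 13.

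**Figure D3:**
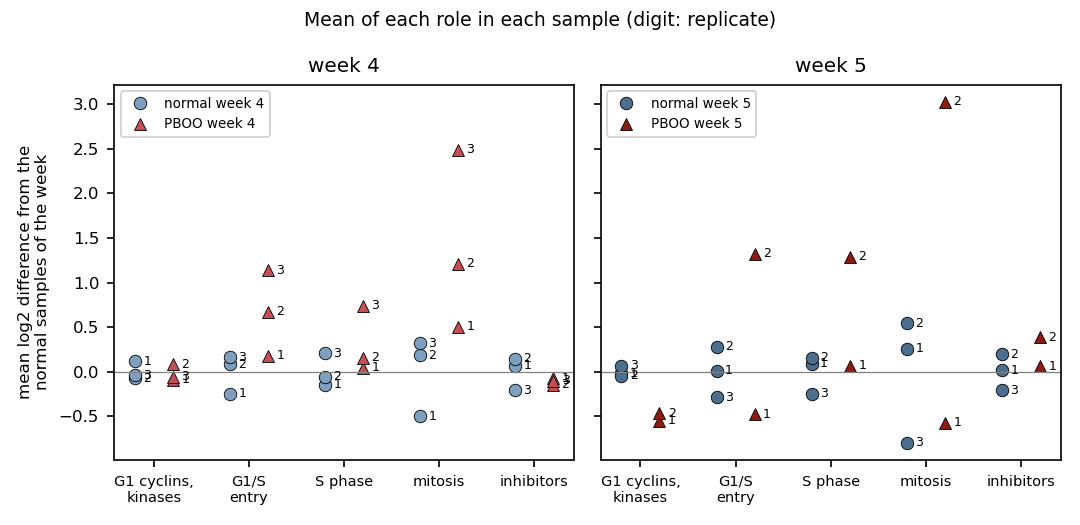
Mean log2 difference from the normal samples of the week, over the tested genes of each role, for each sample at week 4 (left) and week 5 (right). Circles are normal and triangles PBOO samples, with the replicate number beside them. The mitosis means of the week 4 PBOO samples run from 0.50 to 2.49, and those of the 2 week 5 PBOO samples are -0.57 and 3.03, on either side of the normal samples' mean.

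Leaving out 1 sample at a time moved the week 4 count. Without PBOO replicate 3, 4 genes were called, namely Rrm2, Ccna2, Plk1 and Mki67, where 1.52% of all genes were upregulated. Without PBOO replicate 1, 22 were called and 3.42% of all genes. The count was 6 without PBOO replicate 2 (1.80% of all genes) and 6 without normal replicate 1 (1.97%), and no gene was called lower in any of these fits. With a pseudocount of 1 FPKM in place of 0.1, 5 of the 14 genes were called, where 200 of all 11320 genes were upregulated.

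**Figure D4:**
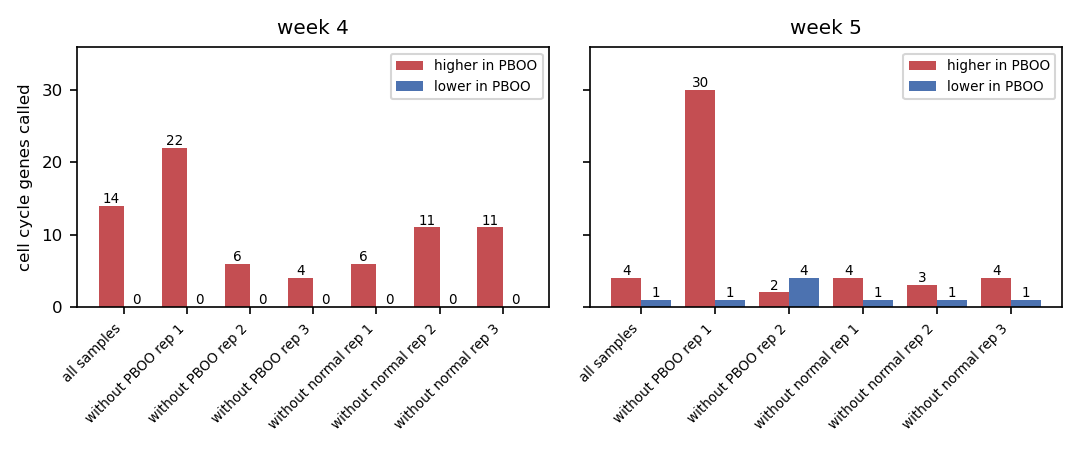
Number of the 49 genes called higher (red) or lower (blue) in PBOO, with all samples and with each sample left out in turn, at week 4 (left) and week 5 (right). The week 4 count runs from 4 to 22 higher, and the week 5 count from 2 higher without PBOO replicate 2 to 30 higher without PBOO replicate 1.

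At week 5 few of the genes were called, and of the 22 mitosis genes only Kif23 was. Of the 47 tested genes, 4 were upregulated (Cdc6, Mcm3, Kif23 and Cdkn1a) and 1 was downregulated (Ccnd2), against 9.82% upregulated and 12.6% downregulated of all 13685 genes tested. All 5 also passed with the adjusted p in limma, as did 19.3% of all genes in either direction. At the 4-fold threshold used in the study for this week, 1 of the 5 was called, Ccnd2 (10.5% of all genes). Median log2 fold changes by role were 1.24 for the mitosis genes, 0.55 for G1/S, 0.48 for S phase, -0.54 for G1, 0.05 for the inhibitors and 0.12 for all genes tested. None of the 7 genes that passed the filter through their PBOO samples was called.

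The 2 PBOO samples of week 5 lay far apart in the mitosis genes. Mki67 read 0.699, 0.922 and 0.166 FPKM in normal replicates 1, 2 and 3, and 0.277 and 8.71 FPKM in PBOO replicates 1 and 2. Top2a read 1.25, 1.61 and 0.145 FPKM against 0.131 and 8.77 FPKM. Ccnb1 read 0.699, 0.807 and 0.180 FPKM against 0.216 and 8.08 FPKM. In each case PBOO replicate 2 was several times the highest normal sample, while PBOO replicate 1 was close to the lowest. Cdk1 read 5.04, 4.85 and 2.58 FPKM in the normal samples and 1.76 and 20.1 FPKM in the PBOO samples. Aurkb read 0.779, 1.07 and 0.259 FPKM against 0.534 and 11.7 FPKM. The log2 differences of these 5 genes were 1.60 ± 1.39, 0.79 ± 1.68, 1.45 ± 1.40, 0.59 ± 0.99 and 1.93 ± 1.27 (SE, limma adjusted p from 0.294 for Aurkb to 0.747 for Top2a), and none was called.

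PBOO replicate 2 of week 5 exceeded replicate 1 by a median of 16.9-fold over the 22 mitosis genes, with 18 of the 22 at least 4-fold higher, where 3.08% of all genes were. Of the 22, 5 had passed the filter through their PBOO samples (Bub1b, Kif11, Cenpe, Cenpf and Ect2), and all 5 are among the 18. These 5 also enter the other counts and the SD of the mitosis genes below. For the 11 S phase genes the median was 1.70-fold with 1 gene at least 4-fold higher, for the G1 genes it was 0.958-fold, and for all genes 1.03-fold. Replicate 2 was the highest of the 5 samples in 41 of the 47 tested genes (87.2%), in 22 of the 22 mitosis genes and in 11 of the 11 S phase genes, against 36.1% of all genes. In replicate 1, 3 mitosis genes were above all normal samples, 8 below all and 11 within their range. Of all genes, 45.6% were above and 33.9% below all normal samples in replicate 1. The median log2 SD of the mitosis genes was 2.88 among the PBOO samples and 0.716 among the normal samples, while over all genes it was 0.262 and 0.152. The leukocyte markers summed to 102 and 554 FPKM in PBOO replicates 1 and 2 and to 10.96 to 29.3 FPKM in the normal samples. Much of the sum in replicate 2 came from S100a8 (2.74 and 145 FPKM in PBOO replicates 1 and 2) and S100a9 (8.87 and 287 FPKM). Cd68 went the other way, at 73.4 and 63.1 FPKM, and the other leukocyte markers were higher in replicate 2. The part of these markers in the difference between the PBOO replicates was not tested.

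Kif23, a motor protein of the central spindle in cytokinesis, was the mitosis gene called at week 5. It read 11.1, 9.99 and 8.68 FPKM in the normal samples and 19.4 and 26.3 FPKM in the PBOO samples. Both PBOO samples were above every normal sample, as in 3 of the 22 mitosis genes and 35.3% of all genes. The log2 fold change of Kif23 was 1.19 ± 0.19 (SE, limma adjusted p = 0.00784). Birc5, the survivin of the chromosomal passenger complex, had the largest log2 difference of the role, 2.56 ± 1.28 (SE, limma adjusted p = 0.183), with 1.001, 1.34 and 0.225 FPKM in the normal samples and 1.07 and 19.1 FPKM in the PBOO samples. The log2 difference was positive for 22 of the 22 mitosis genes in this fit. Of these, 5 (Bub1b, Kif11, Cenpe, Cenpf and Ect2) passed the filter through their PBOO samples, which favours a positive difference. Among all 13685 genes tested, 7950 were positive. Without PBOO replicate 2, Cdc20 was called lower, and the log2 differences of Mki67, Top2a, Cdk1 and Aurkb were negative.

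Among the S phase genes of week 5, Cdc6, which loads the Mcm helicase onto DNA, read 2.82, 1.66 and 2.31 FPKM in the normal samples and 7.53 and 9.17 FPKM in the PBOO samples. Here both PBOO samples were high, with a log2 fold change of 1.86 ± 0.26 (SE, limma adjusted p = 0.00555). Mcm3 read 3.99, 3.83 and 3.64 FPKM against 7.46 and 18.2 FPKM, with a log2 fold change of 1.59 ± 0.37 (SE, limma adjusted p = 0.0273). Mcm5 read 3.24, 3.14 and 1.67 FPKM against 3.53 and 12.8 FPKM and was not called, with a log2 difference of 1.36 ± 0.59 (SE, limma adjusted p = 0.138). Both PBOO samples were above every normal sample in 4 of the 11 S phase genes (Cdc6, Mcm3, Mcm5 and Mcm6), against 35.3% of all genes. Pcna read 26.0, 29.3 and 23.4 FPKM against 28.3 and 46.8 FPKM, and Mcm2 read 10.5, 10.3 and 10.2 FPKM against 10.4 and 16.7 FPKM. In both genes replicate 1 was inside the normal range and replicate 2 above it. Rrm2, the S phase gene called at week 4, read 2.09, 3.39 and 0.619 FPKM against 0.637 and 10.1 FPKM, the pattern of the mitosis genes, and its log2 difference of 0.64 ± 1.23 (SE) was not called.

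The D-type cyclins were lower in the PBOO bladders of week 5. Ccnd2 read 31.2, 28.4 and 34.7 FPKM in the normal samples and 6.72 and 5.68 FPKM in the PBOO samples. The replicates of each group were close, the groups were far apart, and Ccnd2 fell by 2.32 ± 0.15 on the log2 scale (SE, limma adjusted p = 0.000496). Ccnd1 read 54.5, 54.5 and 55.6 FPKM against 31.4 and 30.1 FPKM, with a log2 difference of -0.83 ± 0.10 (SE, limma adjusted p = 0.00365). Ccnd3 had a log2 difference of -0.54 ± 0.11 (SE, limma adjusted p = 0.0170). Both passed the adjusted p and were within 2-fold, and the 3 D-type cyclins were the 3 tested genes of the 47 with both PBOO samples below every normal sample (25.0% of all genes). Their kinases went the other way in level, Cdk4 at 54.1, 53.1 and 52.6 FPKM against 61.6 and 74.4 FPKM, and Cdk6 at 0.479, 0.503 and 0.660 FPKM against 0.815 and 1.26 FPKM. Neither was called, with log2 differences of 0.34 ± 0.13 and 0.80 ± 0.38 (SE), although the groups did not overlap. In all, 11 of the 47 tested genes had both PBOO samples above the normal samples, against 35.3% of all genes. The smooth muscle and fibroblast marker sums, given above, were also lower in these PBOO samples, and their part in the cyclin values was not tested.

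No G1/S gene was called at week 5. Cdk2, the kinase of cyclin E, passed the adjusted p within 2-fold, with a log2 difference of 0.56 ± 0.13 (SE, limma adjusted p = 0.0243). E2f1 read 2.14, 2.25 and 1.79 FPKM in the normal samples and 0.530 and 2.14 FPKM in the PBOO samples, and Foxm1 read 1.75, 1.56 and 1.26 FPKM against 0.980 and 4.99 FPKM. Ccne1 read 1.38, 2.20 and 1.36 FPKM against 1.15 and 3.83 FPKM. Mybl2 read 0.291, 0.429 and 0.128 FPKM against 0.138 and 3.36 FPKM, and Mybl1, under the filter, read 0.277, 0.279 and 0.0782 FPKM against 0.0742 and 0.437 FPKM. In all 5 the second PBOO replicate was above the first, by a wide margin in Mybl2 and Foxm1.

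Cdkn1a was the inhibitor called at week 5, and it ran against the replicate order of the mitosis genes. It read 54.2, 44.3 and 59.0 FPKM in the normal samples and 142 and 77.6 FPKM in PBOO replicates 1 and 2. The highest p21 level was thus in replicate 1, and the log2 fold change was 1.01 ± 0.28 (SE, limma adjusted p = 0.0453). In that replicate 8 of the 22 mitosis genes were below all normal samples, 11 within their range and 3 above. Of all genes, 33.9% were below and 45.6% above all normal samples there. The Cdkn1a call was lost with a pseudocount of 1 FPKM, with median-ratio scaling (a log2 difference of 0.91) and with quantile normalization (0.89). It was also lost without normal replicate 2 and without PBOO replicate 1, where replicate 2 was the only PBOO sample. Cdkn1b read 17.3, 25.6 and 14.4 FPKM against 21.6 and 17.1 FPKM, inside the normal range, and Cdkn2c read 2.75, 3.33 and 1.89 FPKM against 0.860 and 4.26 FPKM. Cdkn2a was listed at 0 in the 3 normal samples and in PBOO replicate 1, and read 0.502 FPKM in PBOO replicate 2.

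**Figure D5:**
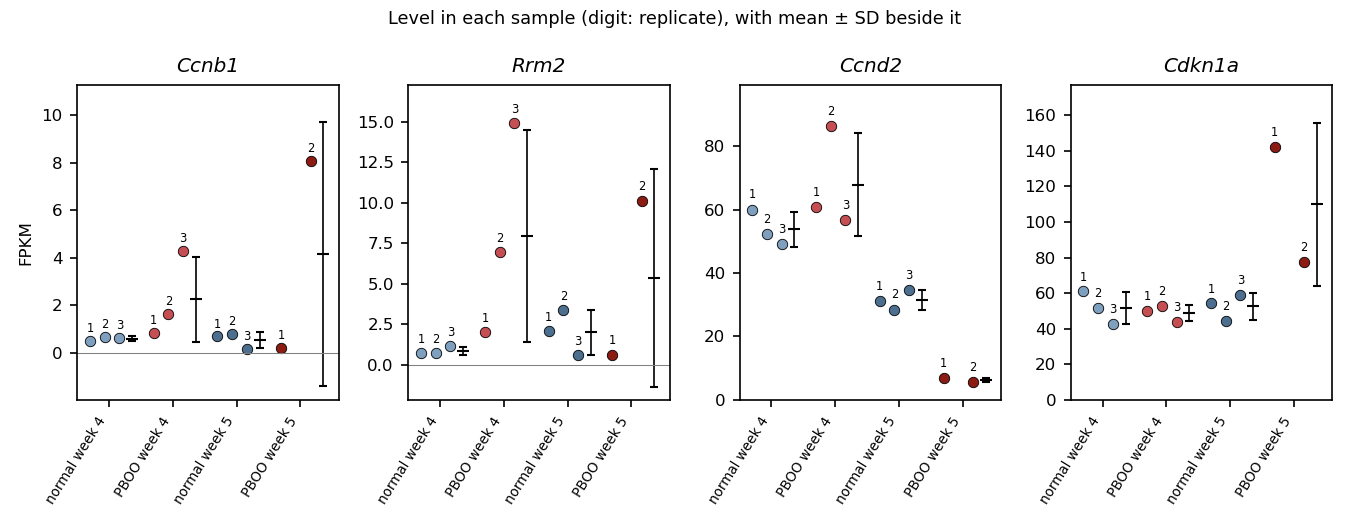
FPKM in each sample (vertical axis, a scale for each gene) for Ccnb1, Rrm2, Ccnd2 and Cdkn1a, with the replicate number above each point and the mean with its SD beside each group. Ccnb1 and Rrm2 are high in PBOO week 4 replicate 3 and PBOO week 5 replicate 2, Ccnd2 is at 5.68 and 6.72 in the week 5 PBOO samples, and Cdkn1a is at 142 in PBOO week 5 replicate 1.

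Without PBOO replicate 2, 2 genes were upregulated at week 5, Cdkn1a and Cdc6, and 4 were downregulated, Ccnd2, Cdc20, Cdkn2c and E2f1. The calls of Mcm3 and Kif23 were thus lost without it. Of all genes, 8.02% were upregulated and 13.6% downregulated in that fit. Without PBOO replicate 1, 30 were upregulated, where 13.8% of all genes were, and 1, Ccnd2, was downregulated (13.9% of all genes). In each of these fits 1 PBOO sample stands alone and is assumed to vary like the normal samples. Without replicate 1 that sample is replicate 2, the highest sample of the week in 41 of the 47 tested genes. The genes upregulated there include Mybl2, Bub1b, Kif11, Cenpe, Cenpf and Ect2, which passed the filter through their PBOO samples.

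The effect of obstruction was compared between weeks in one fit over all 11 samples. It was higher at week 5 for 4 genes (Cdc6, Mcm3, Kif23 and Cdkn1a) and lower for 1 (Ccnd2) of the 47 tested, where 17.6% of all 11296 genes were higher and 12.5% lower. The difference of log2 fold changes, week 5 minus week 4, was -2.64 ± 0.25 for Ccnd2 (SE, limma adjusted p = 4.33e-05) and 2.06 ± 0.45 for Cdc6 (SE, limma adjusted p = 0.00578). No mitosis gene other than Kif23 differed between weeks by this rule, and with the spread of the week 5 PBOO samples this does not show that the weeks were alike. With median-ratio scaling or quantile normalization, which move the median difference of all genes from 0.35 to near 0, the calls were Cdc6 higher and Ccnd1, Ccnd2 and E2f1 lower.

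Other genes of the same processes, listed by role and not among the 49, gave these counts. Of the other mitosis genes, 16 of 29 tested were upregulated at week 4 and 0 were downregulated, against the 2.46% and 2.45% of all genes given above. Of these 29 genes, 8 had a normal mean under 0.5 FPKM and passed the filter through their PBOO samples, and all 8 were among the 16. The largest changes were in Pbk, a mitotic kinase (log2 fold change 2.61), Nek2 of the centrosome (2.57) and Prc1 of the central spindle (2.55, limma adjusted p = 0.0538), of which Pbk and Nek2 belong to the 8. At week 5, 1 of 35 was called, Cks2, a Cdk1 subunit (2.02, limma adjusted p = 0.0415). Of the other S phase genes, 0 of 19 were called at week 4 and 4 of 21 were upregulated at week 5, where 9.82% of all genes were. The week 5 genes were Gins1 (2.73) and Gins2 (2.48) of the helicase complex, Mcm10 (2.59), which acts with it, and the thymidine kinase Tk1 (1.42). Gins1, Gins2 and Mcm10 had a normal mean under 0.5 FPKM and passed the filter through their PBOO samples. Of the other genes that restrain the cycle or answer to p53, 1 of 17 was upregulated at week 4, the phosphatase Cdkn3 (2.32), which also passed the filter through its PBOO samples. At week 5, 5 of 17 were upregulated, led by Gadd45b (1.97), Btg1 (1.85) and Cdkn2b (1.22), and 3 were downregulated, namely Cdkn1c (-3.85), the p57 inhibitor, Gadd45g (-3.15) and Ccng1 (-1.14). Of all genes 9.82% were upregulated and 12.6% downregulated in that week.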

How the data were processed

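Bladder tissues of rats were profiled by RNA sequencing in 11 samples, grouped by the titles and states in the sample records. Total RNA was extracted with TRIzol and made into TruSeq libraries, which were read in pairs on a HiSeq4000 and trimmed with SeqPrep and Sickle. The authors mapped the reads with HISAT2 v2.0.4, assembled transcripts with StringTie v1.3.1 and deposited one table of FPKM values, which they describe as coming from featureCounts. The submitters' processing notes name the build mm10, a mouse build. The table's symbols include 2367 of rat form (LOC, RGD or RT1- prefixes) and 0 of mouse form, so that the build used is uncertain. The setting for strand is not given in the sources used here. Since no counts were used here, the authors' DESeq2 test was not run, the depth is unknown and a listed 0 may be a failed estimate: at week 4, 4871 genes were at 0 in every sample, against 403 at week 5.

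FPKM values were compared without further scaling as log2(FPKM + 0.1), with limma 3.58.1 in R 4.3.3 (lmFit, then eBayes with a trend). A gene was tested if the samples compared averaged 0.5 FPKM or more. Each week was fitted alone, and the difference between weeks over all 11 samples and 11296 genes. Calls required 2-fold and p under 0.05 before adjustment, with Benjamini-Hochberg adjusted values beside them. The steps were tested on simulated data with independent noise, capped below the median spread of the mitosis genes among PBOO samples. That test thus did not cover the spread of those genes. The 49 genes, their roles and all other lists were chosen with earlier results of these data known. Values by sample are given for the main genes of each role, and up to 3 called genes per direction, role and week were named by the size of their change, also from the lists of other genes. Mcm7, Cdk2, Ccnd3, Cdc20, Cdc25b, Mcm6, Tk1 and the other members were named after their values were seen.

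The replicate numbers repeat across groups, no label states that they pair samples, and the main fits treated the samples as unpaired. At week 4 the deviations of PBOO and normal samples of the same number had correlations of 0.154, -0.0241 and 0.232. Those of samples with different numbers ran from -0.21 to 0.0939. With so few samples these values cannot settle whether the numbers pair them. Alternatives were another pseudocount, filter, scaling or threshold, a replicate block, one fit over all samples and each sample left out. Promoters were searched in Python 3.11.15 (pandas 2.3.3, numpy 2.4.6). Plots came from matplotlib 3.10.9.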

Additional observations from a re-analysis of the deposited data

Results flagged for a closer look

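The effect of obstruction differed between week 4 and week 5 for 5 of the 47 genes tested, by a test of the difference itself in limma over all 11 samples. By the same rule 30.2% of all genes differed, so that the share of these genes is below that of genes in general. The values are log2 fold changes at week 5 minus those at week 4. For Ccnd2 the difference was -2.64 (adjusted p = 4.33e-05), with both week 5 PBOO samples below and no week 4 PBOO sample below the range of its normal samples. For Cdc6 it was 2.06 (adjusted p = 0.00578), and for Mcm3 it was 1.19 (adjusted p = 0.0805, which misses the adjusted threshold). For Kif23 the difference was 1.07 (adjusted p = 0.0325) and for Cdkn1a 1.08 (adjusted p = 0.0245). With median-ratio scaling Ccnd2 and Cdc6 were still called, and Mcm3, Kif23 and Cdkn1a were not. For each of the 5 genes both week 5 PBOO samples were on the same side of all normal samples. Of all genes, 35.3% had both above and 25.0% both below, and the 5 were picked by a test on these same samples. The reading of week 5 rests on 2 PBOO samples with low smooth muscle marker sums, whose part in these differences was not tested.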

How the results depend on the processing

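Leaving out 1 sample moved the upregulated count between 4 and 22 at week 4 and between 2 and 30 at week 5, and the downregulated count of week 5 between 1 and 4. It moved the genes with a higher effect at week 5 between 2 and 11 and those with a lower one between 1 and 13. The 11 came without PBOO week 5 replicate 1 and the 13 without PBOO week 5 replicate 2; the higher count was 2 without PBOO week 5 replicate 2, PBOO week 4 replicate 2 or normal week 5 replicate 2, and the lower count was 4 without PBOO week 4 replicate 1 and 2 without normal week 4 replicate 3. Where 1 week 5 PBOO sample is left out, the other stands alone in its group. With any other sample left out, 27.2% to 33.2% of all genes differed between weeks. At week 4, 5 genes were upregulated with a pseudocount of 1 (200 of all 11320 genes) and 0 with the adjusted p (30 of 11320). With all 11 samples in one fit, 3 were upregulated at week 4 (243 of 11305). At week 5, 7 were upregulated with all 11 samples in one fit (1145 of 10922) and 0 at 4-fold (491 of 13685). For the difference between weeks, median-ratio scaling and quantile normalization each gave 1 gene higher and 3 lower, where 25.3% of all genes differed. The replicate block gave 20 upregulated genes at week 4, where 305 of all 11320 genes were upregulated. In the difference between weeks it gave 2 genes higher and 3 lower, where 29.6% of all genes differed. At week 5 the block kept the counts. There its log2 fold changes equal those of the fit without normal replicate 3, but its calls differ (22.1% and 20.5% of all genes). Week 4 signs that reversed were Pcna (0.10 with median-ratio scaling, 0.0063 with quantile normalization), Mcm2 (0.25, 0.24, and 0.00027 with a pseudocount of 1), Cdk6 (0.088, 0.038) and Cdkn1a (0.18, 0.084). With 1 sample left out, week 4 values ran from -0.13 to 0.13 for Mcm2, -0.094 to 0.57 for Mcm5, -0.10 to 0.19 for Ccnd1, -0.30 to 0.052 for Cdk6 and -0.20 to 0.053 for Cdkn1a. At week 5, reversed values were -0.085 for Top2a, -0.0082 for Rrm2 and -0.13 for Cdkn1b with the replicate block, and -0.048 and -0.022 for Cdkn1b with median-ratio scaling and quantile normalization. With 1 sample left out, week 5 values ran from -0.67 to 3.87 for Mki67, -1.84 to 3.43 for Top2a, -1.14 to 2.31 for Cdk1, -0.18 to 4.04 for Aurkb, -1.26 to 2.54 for Rrm2, -0.45 to 1.20 for Ccne1, -1.77 to 0.056 for E2f1, -0.58 to 1.66 for Foxm1, -0.13 to 0.29 for Cdkn1b and -1.49 to 0.70 for Cdkn2c. The cause was not tested. Median-ratio scaling moved the median of all genes at week 4 from -0.25 to -0.01, and the calls of all genes from 278 up of 555 to 412 up of 529. The unknown depth sets no limit that could be computed.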
